A study of Gallus gallus with 3 samples.

Results

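The miR-17-92 cluster is a short stretch of DNA from which several microRNAs (miRNAs) are cut out of one long transcript, and vertebrates carry a second cluster of the same kind, its paralogue. A miRNA binds messenger RNAs mainly through its seed, bases 2 to 8 counted from the 5′ end, and lowers the protein made from them. The products of these clusters fall into the miR-17, miR-18, miR-19 and miR-92 seed families. In mammals they are known for promoting cell proliferation and survival, and they are generally high in dividing cells and lower in differentiated tissue.

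The 9 members were the array probes whose name was exactly gga-miR-17-5p, gga-miR-18a, gga-miR-18b, gga-miR-19a, gga-miR-19b, gga-miR-20a, gga-miR-20b, gga-miR-92 or gga-miR-106, out of the 542 chicken miRNAs on the array, and each was printed as 6 spots. They were measured in leg muscle of 7-week-old birds from 2 strains of meat-type recessive White Rock chickens. Dwarf chickens carry an inherited deletion in the growth hormone receptor gene and weighed about 30% less than normal chickens, which lack the deletion. The strains were bred separately, so the deletion and any other difference between them cannot be told apart. Each strain gave 3 pools of RNA from 3 chickens each, and each of the 3 arrays compared 1 dwarf with 1 normal pool. The dwarf pool carried the dye Cy5 on arrays 1 and 3 and Cy3 on array 2.

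The mature sequences below are those printed with the probes on the array, and they are shown because the families, and the near identity of some members, follow from them. Capitals mark the seed.

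gga-miR-17-5p: cAAAGUGCuuacagugcagguagu
gga-miR-106: aAAAGUGCuuacagugcaggua
gga-miR-20a: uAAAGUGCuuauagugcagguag
gga-miR-20b: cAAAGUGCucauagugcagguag
gga-miR-18a: uAAGGUGCaucuagugcagaua
gga-miR-18b: uAAGGUGCaucuagugcaguua
gga-miR-19a: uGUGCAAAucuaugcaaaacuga
gga-miR-19b: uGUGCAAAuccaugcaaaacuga
gga-miR-92: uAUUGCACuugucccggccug

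The seed AAAGUGC was shared by 4 members, miR-17-5p, miR-106, miR-20a and miR-20b, and by no other miRNA on the array. The miR-18 seed differed from it by a single base inside the seed, A4G, with positions counted from the 5′ end. The seeds of miR-18 and miR-19 were each held by 2 members and by no other probe. On the array the miR-92 seed was also held by miR-32 and miR-367, which belong to neither cluster.

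In the RefSeq gene table of assembly GRCg7b, 6 miRNA genes stood next to each other on chromosome 1, in the order MIR92A1, MIR19B1, MIR20A, MIR19A, MIR18A and MIR17. A matching row of 6 on chromosome 4 read MIR363, MIR92-2, MIR19B-2, MIR20B, MIR18B and MIR106A. Apart from MIR363 and MIR19A, the genes of the rows pair by family in the same order. The array has no probe for miR-363, so its seed was not compared with those of the members. Genes for miR-19b and miR-92 stood in both rows, so their probes cannot say which cluster the RNA came from.

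Some members of different clusters were nearly identical in sequence. Over their shared 22 bases, miR-106 and miR-17-5p differed only by A1C, and miR-17-5p had 2 further bases at its 3′ end. The substitution A20U separated miR-18a from miR-18b, and U11C separated miR-19a from miR-19b. Since miR-19b has genes in both rows, the miR-19 pair also shares a cluster. The bases U1C and U10C separated miR-20a from miR-20b. Within the chromosome 1 cluster, C1U and C12U separated miR-17-5p from miR-20a. How far the probes of such pairs bind each other's RNA was not tested.

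The tissue label was checked against marker miRNAs. Of 7 muscle miRNAs, 6 had a mean signal above 32 in at least 1 strain. The summed signal of all 7 ranged from 30474 to 72845 in the dwarf pools and from 43641 to 62011 in the normal pools. The sum does not show how the single muscle miRNAs compared between the strains. None of the 4 brain miRNAs and not the islet miRNA miR-375 passed 32. Above 32 in at least 1 strain were also 1 of 2 markers of red blood cells, 1 of 4 of white blood cells, 1 of 1 of vessels and 1 of 1 of liver. The vessel miRNA miR-126 was bright, with signals of 2408 to 5173 in the dwarf pools and 2215 to 4024 in the normal pools. The liver miRNA miR-122 had signals of 3.35 to 179 in the dwarf pools and 129 to 248 in the normal pools. Their part in the values of the cluster was not tested, and with bulk tissue fewer cells of a type and less RNA per cell cannot be told apart.

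In this muscle 6 of the 9 members gave a signal above the standard, and they covered every family except miR-18. A signal is the background-subtracted brightness on a linear scale after the 2 dyes and the 3 arrays were brought to a common level. Detection means here that the average over the 3 pools of a strain exceeded 32, the signal standard named in the study's text. By this standard 6 of 9 members were detected in dwarf and 5 of 9 in normal chickens, against 85 and 74 of all 542 miRNAs. These counts rest on the signals computed here. The study counted more miRNAs above 32 at this age, in near equal numbers in the strains. A difference of 1 member rests on miR-19b, whose mean lay next to the standard. Under the 7 other ways of computing signals that were tried, it was detected in normal chickens under 3. Signals of different probes are not set against each other here, since probes bind with different strength.

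Every member of the miR-17 family was above 32 in every pool. The family is known in mammals for repressing inhibitors of the cell cycle. Given in the order of arrays 1, 2 and 3 here and below, the dwarf pools had miR-17-5p signals of 1556, 1188 and 1059, and the normal pools had 1436, 816 and 874. The dwarf pool was higher on every array, but array 1 was high in both strains and the ranges overlapped.

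For miR-106, the paralogue of miR-17-5p on chromosome 4, the dwarf pools gave 1240, 915 and 858 and the normal pools 1080, 598 and 691. The pattern over arrays was that of miR-17-5p, with both pools of array 1 above the rest of their strain and overlap between strains.

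The miR-20 probes behaved differently on array 1. For miR-20a the dwarf pools gave 886, 1072 and 1170 and the normal pools 1376, 893 and 785. For miR-20b the dwarf pools gave 324, 388 and 325 and the normal pools 436, 256 and 208. The raw brightness of miR-20b in Cy3, the dye of the normal pools on arrays 1 and 3, was only 1.62 and 1.49 times the background there. In both miR-20a and miR-20b, the normal pool of array 1 was the highest of all 6 pools, while on arrays 2 and 3 the dwarf pool was higher. The ranges of the strains overlapped for both. The mean of miR-20a was 1043 ± 145 (SD, n = 3) in dwarf and 1018 ± 315 (SD, n = 3) in normal chickens, and the order turned under all 7 other ways of computing signals.

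The miR-19 family was at the edge of detection. For miR-19b the dwarf pools gave 67.1, 30.9 and 37.7 and the normal pools 35.8, 13.0 and 44.3, and 4 of the 6 pools lay above 32. The mean was 45.2 ± 19.2 (SD, n = 3) in dwarf and 31.0 ± 16.2 (SD, n = 3) in normal chickens, so the gap was smaller than either SD. For miR-19a, which differs from it by U11C, the pools ranged from -4.00 to 16.2 and none was above 32.

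The miR-18 family was below the standard in both strains. It passed the standard in normal chickens only with the background taken from the empty spots, a setting that put 540 of all 542 miRNAs above it there. Signals of miR-18a ranged from 3.36 to 13.3 and those of miR-18b from -1.62 to 7.60 over the 6 pools. The raw brightness of these probes lay within 1.12 times the background in every dye and array for miR-18a and within 1.03 times for miR-18b. This background was fitted to the miRNA spots themselves, so a typical dim probe lies near it by construction. In Cy3 its median was 830, 304 and 698 on the 3 arrays, beside 654, 288 and 632 for the empty spots. In Cy5 it was 51.4, 44.3 and 53.2, beside 50.3, 44.5 and 56.3. A level below the standard was not measurable here, and it does not show that the RNA was missing.

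The miR-92 probe was bright in all pools. Members of this family are known in mammals as repressors of integrin and pro-apoptotic messages. The dwarf pools gave 2105, 1509 and 1402 and the normal pools 1930, 1753 and 1527. Here the dwarf pool was higher on array 1 only, and the ranges overlapped.

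**Figure D1:**
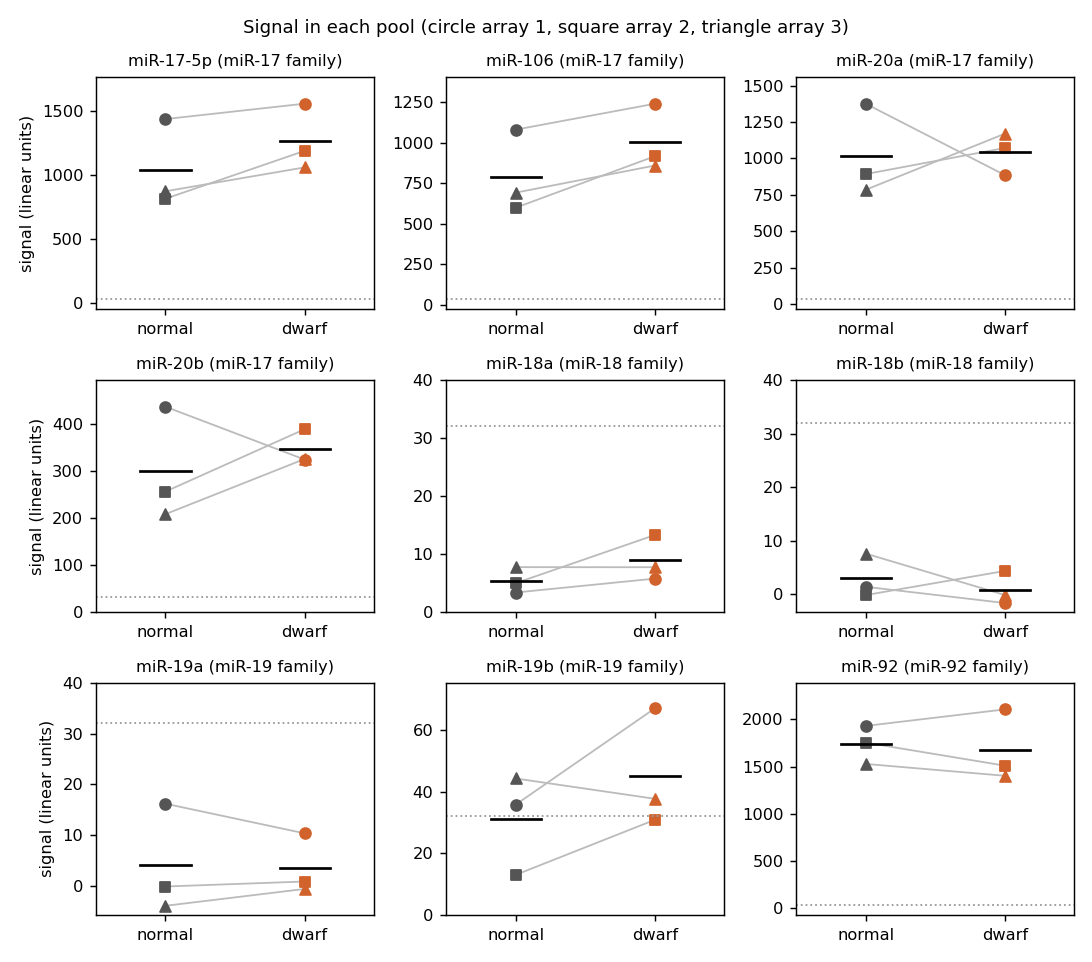
Signal (linear units, background subtracted) of each of the 9 members in the normal (grey) and dwarf (orange) pools, with grey lines joining the 2 pools of 1 array, black bars for the mean of 3 pools and a dotted line at 32. The axes differ between panels, the strains overlap in all 9 panels, and the miR-20a and miR-20b lines cross because array 1 runs the other way. Overlap over all tested miRNAs was not counted.

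Dwarf and normal chickens were then compared by the log2 ratio of dwarf over normal on each array, tested with limma over the 85 miRNAs detected in either strain. No member passed an adjusted p of 0.05, and no miRNA did (0% of those tested). At an unadjusted p under 0.05 there were 4 miRNAs (4.71%), none of them a member. The smallest adjusted p of a member was 0.825 with the Benjamini-Hochberg adjustment, for miR-106. The background step adds a constant of 50 to both dyes, which pulls ratios toward 0, most of all for dim probes. In simulated data, with bright and dim miRNAs together, a log2 change of 1 came back at a median share of 0.72. Of such changes 83.2% were found. The simulation gave every miRNA the same spread between arrays (SD 0.28) and changed a large part of the detected miRNAs. The share found therefore does not carry over to these data, where the spread differs between miRNAs.

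Only miR-106 and miR-17-5p among the 6 detected members had ratios of one sign on all 3 arrays. The log2 ratio of miR-106 was 0.13, 0.55 and 0.18 on arrays 1, 2 and 3, with a mean of 0.28 and a 95% interval of -0.15 to 0.72. That of miR-17-5p was 0.06, 0.49 and 0.16, with a mean of 0.24 and an interval of -0.19 to 0.67. Both were above 0 on all 3 arrays, as were 18 of the 85 tested miRNAs (21.2%), and no member was below 0 on all 3, against 7 (8.24%). Both means were above 0 under every alternative processing but one, no normalization within arrays. Many of these alternatives changed only the filter or the test and left the ratios as they were. The 2 means rest in part on array 2: without it they were 0.15 for miR-106 and 0.11 for miR-17-5p. Array 2 alone had the dyes swapped, so an effect of the dyes and a difference of its pools cannot be told apart. With the dye as a term in the fit, the log2 ratios were 0.35 for miR-106 and 0.30 for miR-17-5p. As folds, the intervals ran from 0.902 to 1.64 for miR-106 and from 0.874 to 1.59 for miR-17-5p. A smaller added constant gave log2 means of 0.29 and 0.25, and plain subtraction, without a constant, gave 0.27 and 0.21.

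The miR-20 pair had ratios that changed sign between arrays. The ratio of miR-20a was -0.57, 0.22 and 0.44, with a mean of 0.03 and an interval of -0.53 to 0.59. That of miR-20b was -0.31, 0.42 and 0.32, with a mean of 0.14 and an interval of -0.35 to 0.64. Leaving out array 1 moved this mean to 0.37, while leaving out array 2 or 3 moved it to 0.0058 or 0.055. The spread of miR-20a over arrays (SD 0.53, n = 3) was above the median SD of the tested miRNAs, 0.28. The direction of miR-20a turned without array 2 (-0.07) and without array 3 (-0.17), and its mean without array 1 was 0.33.

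The ratio of miR-19b was 0.23, 0.11 and -0.14, with a mean of 0.06 and an interval of -0.36 to 0.48. Its mean was -0.02 without array 1 and 0.17 without array 3. Plain subtraction, without the added constant, gave miR-19b a mean of 0.62, above that interval. The median over all tested miRNAs was then 0.13. The ratio of miR-92 was 0.08, -0.20 and -0.18, with a mean of -0.10 and an interval of -0.52 to 0.31. Without 1 array its mean ranged from -0.19 (without array 1) to -0.05 (without array 2). With the processing used, miR-92 was the only tested member with a mean below 0. Its mean stayed below 0 under every alternative but median centring, while each other tested member also fell below 0 under at least 1 alternative.

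The exact permutation tests of single members cannot pass 0.05 in this design. Turning the signs of 3 ratios gives a two-sided p of at least 0.25, reached by miR-106 and miR-17-5p. Exchanging 3 pools against 3, which leaves out the pairing by array, gives at least 0.1. The exact permutation p over pools ranged from 0.3 to 1 for the 6 detected members.

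**Figure D2:**
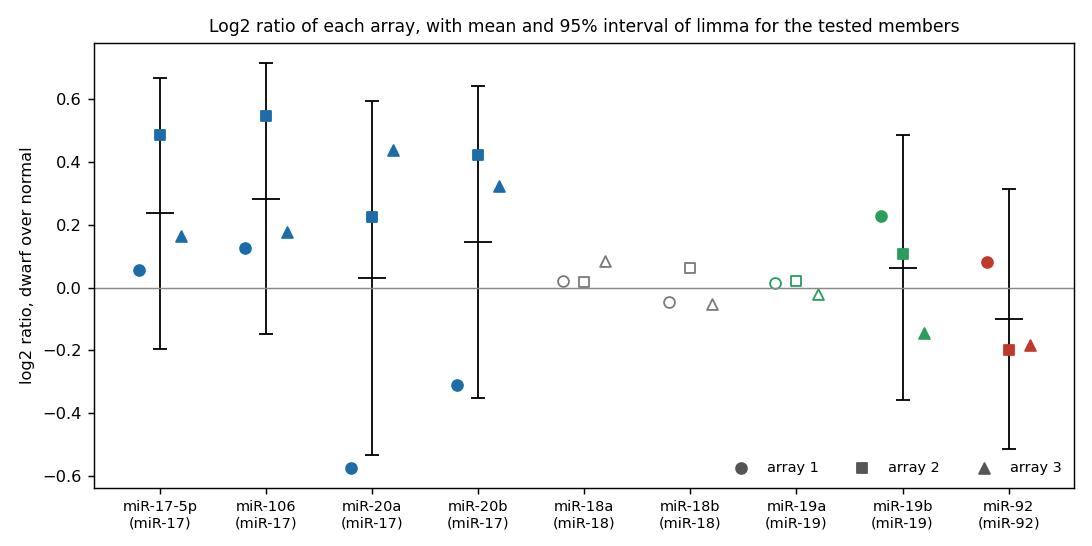
Log2 ratio of dwarf over normal for each member on array 1 (circle), 2 (square) and 3 (triangle), grouped by seed family, with the mean (bar) and 95% interval from limma for the 6 detected members. Open symbols are the 3 members below the signal standard, whose ratios are held near 0 by the added constant, and every interval includes 0.

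The members were next read against all tested miRNAs. The median log2 ratio of the 6 was 0.10, with 5 of 6 above 0, beside 0.05 and 54 of 85 for all tested. By rank from the highest of 85, miR-106 stood at 34, 12 and 31 on the 3 arrays and miR-17-5p at 42, 16 and 34. The ranks of miR-20a were 77, 30 and 20 and those of miR-20b 74, 21 and 25. Thus the miR-20 probes were among the lowest on array 1 and in the upper part on the other arrays, while miR-92 stood at 41, 70 and 66.

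**Figure D3:**
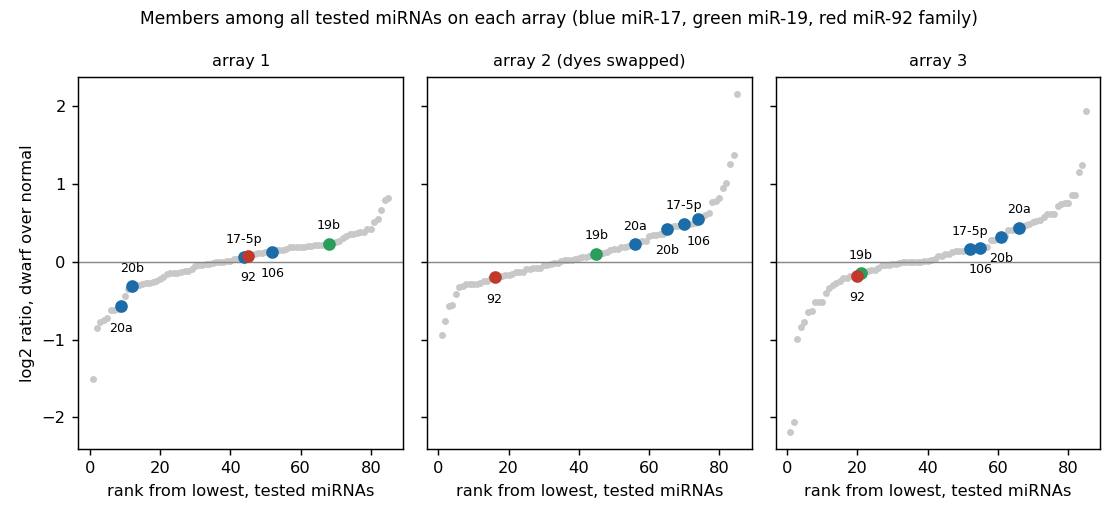
Log2 ratio of dwarf over normal against rank from the lowest for the 85 tested miRNAs (grey) on each array, with the 6 detected members coloured by family. On array 1 miR-20a and miR-20b lie near the low end, and on arrays 2 and 3 all 4 miR-17 family members lie above 0.

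Within the miR-17 family, the ratios of one array did not agree. Its 4 members averaged -0.18, 0.42 and 0.28 on arrays 1, 2 and 3. On array 1 they spanned 0.70, from -0.57 for miR-20a to 0.13 for miR-106, and on arrays 2 and 3 they spanned 0.32 and 0.27. The family mean was the lowest of the 3 tested families on array 1 and the highest on arrays 2 and 3, and no test of families was made.

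Members were then compared pair by pair through the root mean square difference of their 3 log2 ratios. The smallest was 0.053, between miR-106 and miR-17-5p, the pair that differs only by A1C and in length. The next were 0.20 between miR-19b and miR-92, which share no seed, and 0.20 between miR-20a and miR-20b. Within the miR-17 family, it was 0.43 for miR-17-5p and miR-20a, both from chromosome 1, and 0.28 for miR-106 and miR-20b, both from chromosome 4. The remaining pairs of this family, across the clusters, gave 0.47 for miR-106 and miR-20a and 0.23 for miR-17-5p and miR-20b. The values within a cluster therefore lay inside the range of those across clusters. The 6 pairs with a shared seed ranged from 0.053 to 0.47 and the 9 pairs without one from 0.20 to 0.58, so the ranges overlapped. All pairs share the same 3 arrays.

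The 6 spots of each probe show the technical spread within an array. For miR-20a on array 1 all 6 spots lay between -0.69 and -0.49, and on array 3 between 0.27 and 0.57. For miR-20b on array 1 they lay between -0.47 and -0.18, and on array 2 between 0.28 and 0.52. The SD of the spots in the miR-17 family ranged from 0.081 to 0.18. The spots of the dim miR-19b probe were wider on array 3, from -0.39 to 0.24 (SD 0.23), and those of miR-92 had an SD of 0.13 to 0.16. Spots of 1 array share the same pools, so their spread says nothing about the spread between birds.

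**Figure D4:**
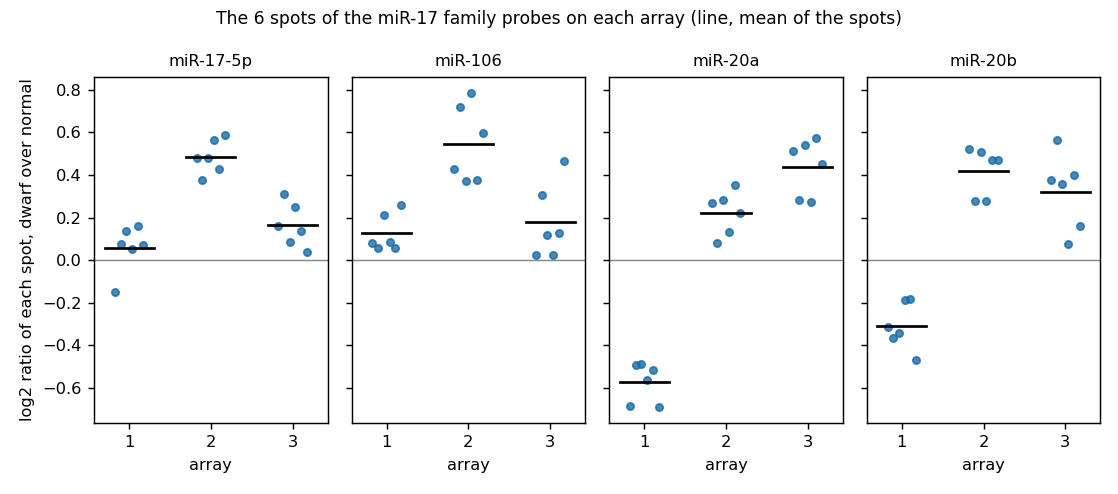
Log2 ratio of dwarf over normal of each of the 6 spots of the 4 miR-17 family probes on each array, with a line at their mean. All 6 spots of miR-20a and of miR-20b are below 0 on array 1 and above 0 on arrays 2 and 3.

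Base composition moved with the ratios on the arrays, in opposite directions. Over the 85 tested miRNAs the log2 ratio changed by 0.10, -0.05 and -0.09 for each 10% more G+C on arrays 1, 2 and 3 (Pearson r 0.39, -0.17 and -0.22 across miRNAs, which share the arrays and are not replicates). The detected members held from 39.1% G+C, in miR-20a and miR-19b, to 57.1% in miR-92. With this trend taken out of each array, miR-20a still read -0.45, 0.16 and 0.34 and miR-20b -0.28, 0.40 and 0.29. Those of miR-106 became 0.23, 0.49 and 0.09 and those of miR-92 became 0.02, -0.17 and -0.13, and no ratio of a detected member changed its sign.

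**Figure D5:**
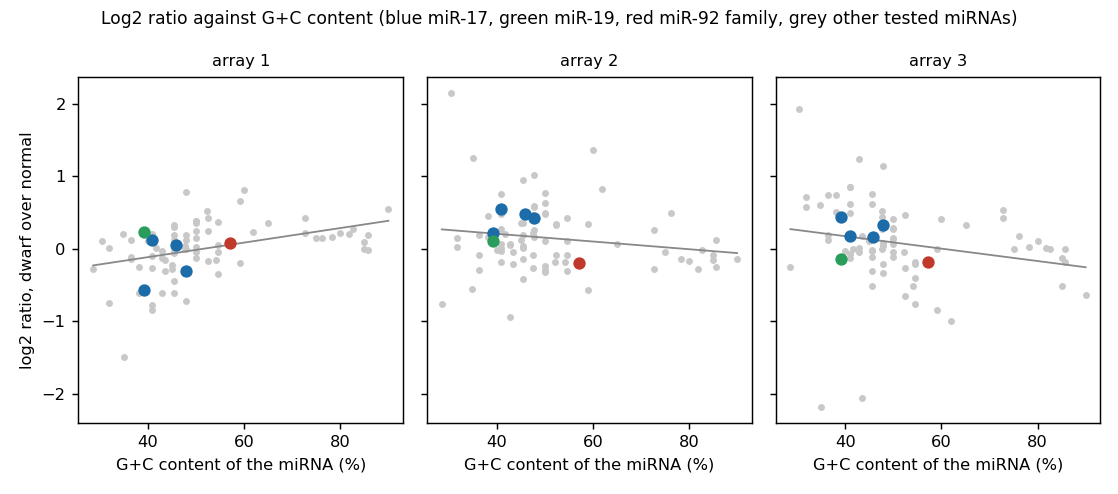
Log2 ratio of dwarf over normal against the G+C content (%) of each of the 85 tested miRNAs on each array, with the fitted line and the 6 detected members coloured by family. The line rises on array 1 and falls on arrays 2 and 3, and miR-20a lies well below it on array 1.

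The remaining probes tied to the clusters were dim. The probe of the other arm of MIR17, miR-17-3p, had signals of -5.50 to 9.75 over the 6 pools. It is printed here to show that its seed is unlike that of miR-17-5p, with the seed in capitals.

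gga-miR-17-3p: aCUGCAGUgaaggcacuugu

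The miR-92 seed mates miR-32 (-2.48 to 14.6) and miR-367 (-20.6 to 3.22) were likewise below 32 in all pools. Only the miR-92 probe therefore gave a measurable signal for this seed.

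The 3 tested miRNAs outside the clusters with ratios most like the mean of the 6 detected members were miR-30c, let-7d and miR-15b, with root mean square differences over the 3 arrays of 0.094, 0.096 and 0.10. The ratios of miR-30c were 0.01, 0.20 and 0.001, those of let-7d -0.01, 0.22 and 0.28, and those of miR-15b -0.02, 0.36 and -0.01. The members themselves averaged -0.07, 0.26 and 0.13. All 3 belong to miRNA families of many tissues, but let-7d was dim here, with mean signals of 83.4 in dwarf and 60.5 in normal chickens. With 3 arrays this likeness is a description.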

How the data were processed

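A service provider ran the arrays, and the authors deposited spot intensity in Cy3 and Cy5 as a linear brightness with no background correction. The other deposited table, used as an alternative, holds log2 ratios that the authors made after background subtraction and LOWESS. It follows the direction dwarf over normal (r of 0.83, 0.88 and 0.89 with the ratios computed here over 85 miRNAs), and its medians over all probes were 0.15, 0.02 and 0.15. Over all probes its arrays 1 and 2 correlated at -0.19, arrays 1 and 3 at 0.36 and arrays 2 and 3 at -0.31. Over the tested miRNAs these values were 0.05, -0.02 and 0.07. The ratios computed here correlated little between arrays over the tested miRNAs. Their values were -0.003 for arrays 1 and 2, -0.04 for arrays 1 and 3 and 0.17 for arrays 2 and 3. How spots were combined in the deposited table and whether that table was centred stay unknown. Which pool carried which dye came from the sample labels and matched the column headers.

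In R 4.3.3 with limma 3.58.1, the background of each dye was a robust loess surface over row and column (span 0.3), fitted to the miRNA spots. Ratios were made with normexp (offset 50) and loess within arrays on the miRNA spots (span 0.3, 4 iterations), spots were averaged on the log2 scale and array 2 was turned. Means were tested by lmFit and eBayes, adjusted over 85 miRNAs after Benjamini and Hochberg, and each array is 1 replicate paired by hybridization. Pools hold different chickens, but 3 per strain limit the precision. Spread was taken over single miRNA spots in raw units, once their background had been removed, and includes any true signal. As a median absolute deviation it was 24.2, 8.66 and 20.8 in Cy3 on the 3 arrays and 2.19, 1.83 and 2.90 in Cy5. The standard of 32 applies to normalized signals of probes with 6 spots, so its distance from the noise was not measured. The code was tested on simulated data, where 2.76% of calls were false. Those data had the same spread for every miRNA, unlike the real arrays.

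The members, marker lists, background and spans were chosen with earlier results of these data known. Signals used the loess curve of the ratios, and this definition was chosen out of 8 after the members' signals under several of them had been seen. All 8 are compared in the closing section. All 9 members are named, with every other probe of a member's seed, the other-arm probe and the 3 tested miRNAs nearest in ratio. The figures were drawn with matplotlib 3.10.9.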

Additional observations from a re-analysis of the deposited data

How the results depend on the processing

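No member passed an adjusted p of 0.05 under any of 29 alternatives, where the lowest was 0.178 in limma. Leaving out the pairing by array (separate channels, no replicate block) keeps the mean ratios, and the member median of 0.10, by construction. It put 0 miRNAs past the threshold. Median centring put the median of all tested miRNAs at 0.51 and no normalization at -0.51. The member median was 0.63 and -0.40, by construction the same 0.12 above all tested. Median centring turned miR-92 to 0.58. No normalization turned miR-106 to -0.13, miR-17-5p to -0.15, miR-19b to -0.85, miR-20a to -0.37 and miR-20b to -0.42. Relative to the median of all tested miRNAs, miR-106 and miR-17-5p stayed above in 29 of 29 alternatives, but by little in some: by 0.056 and 0.0077 with the deposited ratios and by 0.084 and 0.042 without array 2, against 0.24 and 0.19. With loess on the detected miRNAs the member median was -0.034, miR-19b -0.032, miR-20a -0.037 and miR-20b -0.036. Plain subtraction turned miR-20a to -0.029 and moved miR-19b to 0.62. The deposited ratios turned miR-20a to -0.17 and miR-20b to -0.079. Without 1 array the ratio of miR-19b ranged from -0.020 to 0.17, that of miR-20a from -0.17 to 0.33, and the member median from 0.024 to 0.33, highest without array 1. The cause of these changes was not tested.

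Only miR-106 and miR-17-5p among the members had an unadjusted p under 0.05 with no background correction and with median centring (2 each time, beside 8 and 19 of all 85 tested miRNAs). The number of tested miRNAs past the adjusted threshold was 1 with a standard of 100, 3 with a trend in the eBayes prior, 3 with the G+C trend taken out (added after seeing the data), and from 0 to 3 without 1 array (1 without array 1, 3 without array 3). Background from the empty spots put 9 members and 540 of 542 miRNAs above the standard in normal chickens, and 6 members and 85 miRNAs in dwarf chickens.

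The 7 other signal definitions, tried after seeing the data, changed which miRNAs were tested (82 to 86) and gave 6 members detected in dwarf and 5 or 6 in normal chickens. The mean of miR-19b ranged from 33.5 to 48.3 in dwarf and from 27.0 to 45.0 in normal chickens, and was higher in normal chickens under 2 of them. The mean signal of miR-20a was higher in normal chickens under all 7, against dwarf under the definition used. For miR-20b the order also turned with a loess over the miRNAs above 32. Its means were then 307 in dwarf and 326 in normal chickens at a span of 0.3, and 310 and 326 at 0.7. The strains overlapped for all detected members under each definition. The share of all tested miRNAs with such overlap was not counted, so overlap is not read as a trait of the members.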
